A study of Mus musculus with 18 samples.

Results

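GL261(scid) tumors were compared between untreated mice and mice given cyclophosphamide (CPA) once every 9 days (CPA/9d). The comparison takes every gene of the deposited table that sets these groups side by side, 23284 genes, and 4 of the 18 libraries of the study, 2 of untreated and 2 of CPA/9d tumors. GL261 is a mouse glioma cell line, a single line, which was implanted here s.c. on the posterior flank and not in the brain. The hosts were male ICR scid mice, 12 weeks old, which lack mature T and B cells in every group and keep NK cells, macrophages and other innate cells. Each untreated library pooled the RNA of 6 tumors and each CPA/9d library that of 12 tumors, taken 6 days after the second of 2 i.p. injections of 140 mg/kg given 9 days apart. The same tumors on a 6-day schedule (CPA/6d, 2 pools of 9 tumors, 2 injections of 140 mg/kg 6 days apart, also taken 6 days after the last) and GL261(B6) tumors of male, immune competent B6 mice, 12 weeks old, untreated or on CPA/6d with the same dose, injections and time of sampling (pools of 9 and 10 tumors each), serve only to show where the CPA/9d response differs.

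Values are normalized reads, the reads of a gene divided by the size factor of its library, and a gene was tested where at least 2 libraries had 10 or more. The test, limma, fits 1 linear model to log2(normalized reads + 1) of every gene and adjusts p over all of them. Of the 14769 genes tested, 2877 rose by more than 2-fold after CPA/9d (19.5% of those tested) and 1593 fell by more than 2-fold (10.8%), 4470 in all (30.3%), each at an adjusted p under 0.001 in limma. Without the CPA/9d pool with more reads 1529 genes rose, 1492 of them among the 2877, and without the one with fewer reads 1422, 1406 of them among the 2877. Genes of macrophages, NK cells, cytotoxic granules, complement, MHC class II, fibroblast matrix, vessels, skeletal muscle and fat were higher in the treated tumors. Glial and myelin genes of the tumor cells, all 24 genes listed for DNA replication, most genes of mitosis and most genes of sterol synthesis were lower. Genes induced by type I interferon mostly changed by less than 2-fold. Values of a group are given first for its pool with more reads and then for its pool with fewer, since the pool numbers cannot be assigned. A count given without either CPA/9d pool is the count when one or the other of them is left out.

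CPA is a prodrug that cytochromes P450 of the liver turn into a compound that crosslinks DNA, and dividing cells are the most sensitive to it. Macrophages engulf dying cells and degrade them in lysosomes, whereas NK cells kill targets with perforin and granzymes, the proteins of their granules, and need no antigen receptor of the kind that scid mice cannot assemble.

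The libraries held 7875403 to 15979644 reads counted over genes, and the median gene differed by 0.0896 in log2 between the untreated pools and by 0.111 between the CPA/9d pools. The p-values rest on the spread between 2 pools of tumors in each group, not between single mice. In limma the spread of each gene is drawn toward that of genes at a similar level. A gene whose own pools lie far apart can therefore still be called. The glioma genes Olig1, Olig2, Sox2 and Sox10 had 653 or more reads in each of the 4 libraries. Most markers of mature T and B cells were at or near 0. Cd3e had 1 and 0 reads in the untreated and again 1 and 0 in the CPA/9d libraries, Cd3d 0 and 0 before and 3 and 3 after, and Ms4a1 none in any of the 4, while Cd4, which macrophages and dendritic cells can also carry, had 33 and 29 reads before and 268 and 215 after. Xist, the RNA of the inactive X chromosome of females, had 32 to 41 reads in the untreated and CPA/9d libraries but 1263 and 630 in the CPA/6d libraries, all labelled male. Xist thus goes against the label in both CPA/6d pools, and no result of the schedule comparison can be given without these pools. The Y-linked genes had reads there too, Ddx3y 638 and 459 (552 and 369 on CPA/9d) and Eif2s3y 493 and 330 (492 and 289). Kdm5d had 289 and 203 (309 and 144) and Uty 223 and 148 (219 and 142). The source of the Xist reads was not tested. The libraries of scid tumors are labelled unstranded although their protocol says strand-specific, so reads of a gene cannot be told apart from those of an overlapping or antisense gene.

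**Figure D1:**
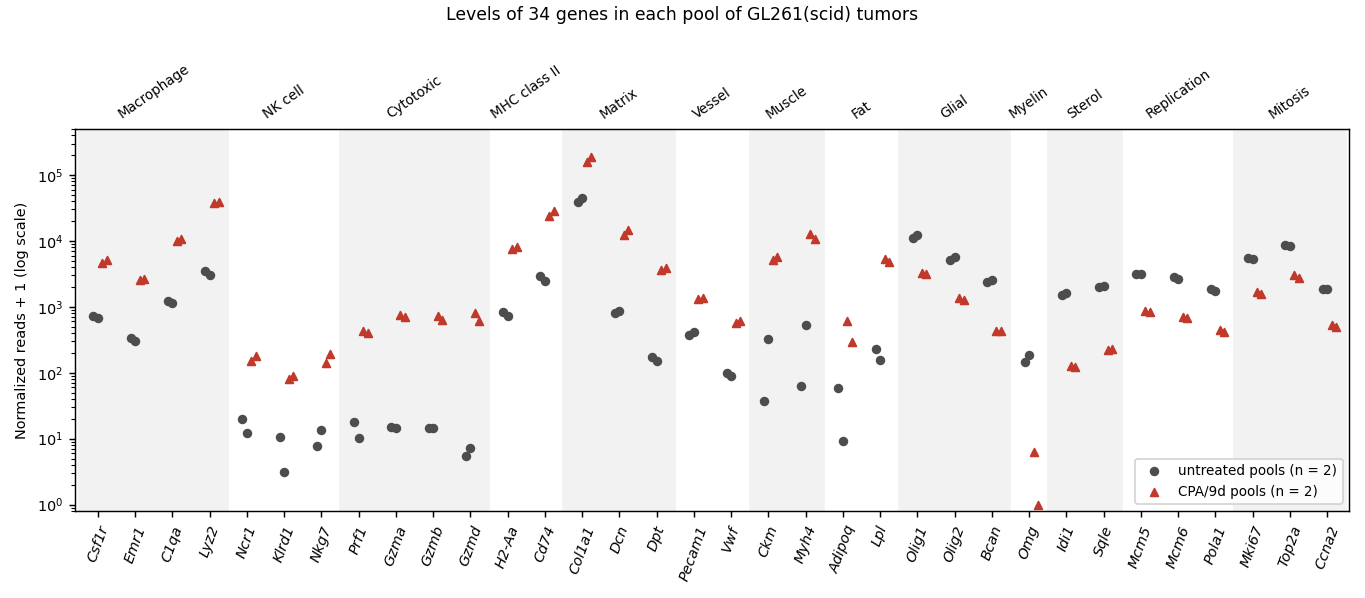
Levels of 34 genes in each pool of GL261(scid) tumors, as normalized reads + 1 on a log scale, with circles for the 2 untreated pools and triangles for the 2 CPA/9d pools, grouped by the kind of gene. Both pools were higher after CPA/9d in 43.6% of all genes tested and lower in 46%, so most genes show no overlap in 1 direction or the other. In each of the 34 genes, too, both CPA/9d pools lie on the same side of both untreated pools. Gzma went from 14 and 13.4 to 741 and 699.8 and Idi1 from 1501 and 1626 to 124 and 121.

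Macrophage genes rose throughout. All 21 tested genes of the macrophage list of 22 were called higher, with a median log2 fold change of 3.03 against -0.0293 over all genes tested, and the summed level of the list was 11377 and 10375 in the untreated and 91749 and 96276 in the CPA/9d pools. Csf1r, the receptor for the growth factor that macrophages depend on, was at 717 and 674 in the untreated and 4679 and 5134 in the CPA/9d pools, a 7.05-fold increase (log2 change 2.82 ± 0.061 (SE), adjusted p = 3.68e-10 in limma). Emr1, which encodes the surface marker F4/80, went from 330.0 and 305 to 2541 and 2667. Both treated pools stood far above both untreated pools for these genes, and the treated pools differed little from each other. Trem2, a receptor for lipids of dying cells, rose 11.1-fold, and Ms4a7, carried by tissue macrophages, rose 13.7-fold. Lyz2, which encodes lysozyme, moved from 3542 and 3049.8 to 36996 and 38319 normalized reads. In bulk tumor RNA, more cells of a type and more RNA per cell cannot be told apart.

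Monocyte genes rose with them. All 14 genes of monocytes and their recruitment were called higher, among them Ccr2, the receptor that draws monocytes out of the blood, from 411 and 384 to 2016 and 2124. Ly6c2, a marker of inflammatory monocytes, rose 4.49-fold. Fcgr4, an activating receptor for IgG, went from 51.7 and 46.5 to 815 and 846, 16.9-fold and the steepest rise of this list. For alternative activation, the state linked to repair, 10 of 15 tested genes were called higher and none lower, with a median of 2.32. Ccl24 rose from 8.12 and 5.17 to 60.3 and 71.1, whereas Arg1, the arginine-degrading enzyme often used to mark this state, was at 154 and 175 and then 286 and 279, a log2 change of 0.78 that fell short of 2-fold. Retnla, another marker of this state, differed severalfold between the untreated pools, at 29.5 and 4.14, and was at 109 and 94.4 after CPA/9d (adjusted p = 0.00144 in limma, not called). Without the CPA/9d pool with more reads 3 genes of the alternative activation list were called and without the one with fewer reads 4, and Ccl24 was then among those that lost the call (adjusted p up to 0.00295 in limma).

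Neutrophil and dendritic cell genes moved less evenly. Of 11 tested neutrophil genes 4 were called higher and none lower (median 1.31), with 6 called without the untreated pool with more reads and 2 without either CPA/9d pool. Csf3r, the receptor for granulocyte colony-stimulating factor, which monocytes carry too, rose from 81.9 and 61 to 750.3 and 815, and Mmp9, a gelatinase, rose 6.34-fold. The granule and calcium-binding proteins that define neutrophils stayed low: S100a9 was at 5.91 and 6.21 in the untreated and 32.8 and 10.2 in the CPA/9d pools, and S100a8 at 6.64 and 9.31 and then 27.5 and 10.2, with treated pools that differed severalfold and neither gene called. Ngp, a neutrophil granule protein, had 2 reads in the untreated and 28 in the CPA/9d libraries, a ratio of 17.9 whose 95% exact interval of 4.51 to 155 covers counting error only. Of 14 dendritic cell genes 8 were called higher and 1 lower, and without either CPA/9d pool 4 were called higher. Cd83, a maturation marker, rose from 61.3 and 54.8 to 749 and 772, 13.1-fold, and Itgax, which encodes CD11c, rose 5.94-fold. Clec9a, a receptor of cross-presenting dendritic cells, rose from 13.3 and 3.10 to 82.5 and 77 but lost its call without either CPA/9d pool (adjusted p up to 0.0183 in limma). The gene called lower, Fscn1, an actin-bundling protein that glioma cells also make, fell from 13171 and 14304 to 2863 and 2888. Of 6 tested genes of mast cells, basophils and eosinophils 2 were called higher, Cpa3 and Siglec5, beside 19.5% of all genes tested. Both calls were lost without either CPA/9d pool, and more genes were called without the untreated pool with more reads.

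Cytotoxic effectors had the highest median of the immune cell lists. All 12 tested genes of that list of 13 were called higher, with a median of 3.62, and 10 were called without either CPA/9d pool. Gzma was at 14 and 13.4 in the untreated and 741 and 699.8 in the CPA/9d pools, 52.4-fold (log2 5.61 ± 0.14, adjusted p = 7.65e-10 in limma). Gzmb was at 13.3 and 13.4 and then 714 and 630.1, and Prf1, which encodes the pore protein perforin, at 17 and 9.31 and then 430.1 and 402, 31.7-fold. For each of these genes both treated pools were more than 10 times as high as either untreated pool, and the untreated pools of Prf1 differed from each other by more than those of Gzma and Gzmb did. Gzmd went from 4.43 and 6.21 to 812 and 604, Gzmf from 2.21 and 1.03 to 844 and 537 and Gzmg from 2.21 and 1.03 to 441 and 356, and the last 2, on no list here, were the largest increases of all genes named by size (log2 8.04 and 7.28). Gzmd (chr14:56748393-56751445, mm9, minus strand), Gzmg (chr14:56775419-56778416, minus strand) and Gzmf (chr14:56824103-56830244, minus strand) are neighbouring copies of 1 family with closely related sequences, so the split of reads among them is uncertain. Gzmb lies beside them at chr14:56877693-56881097, and Gzma lies apart at chr13:113884033-113891187.

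Of 15 tested NK cell genes 12 were called higher and none lower (median 2.80). Ncr1, which encodes the activating receptor NKp46 and is the marker most closely tied to NK cells, went from 19.2 and 11.4 to 149 and 177, 10.7-fold (log2 3.37 ± 0.26). Il2rb, the signaling chain of the IL-2 and IL-15 receptors, went from 39.9 and 33.1 to 546 and 552, and Nkg7, a granule membrane protein, from 6.64 and 12.4 to 138 and 191.7. Klrd1, which encodes CD94, was at 9.60 and 2.07 and then 78.9 and 87.1. For each of these genes both treated pools were above both untreated pools, as for 43.6% of all genes tested, and the untreated pools of Klrd1, Ncr1 and Nkg7 differed from each other by a larger factor than the treated pools did. Klrg1 had 1 read in the untreated and 104 in the CPA/9d libraries, a ratio of 133 (95% exact interval of counting error 23.3 to 5300). Klrb1c, which encodes the NK1.1 antigen in B6 mice, was at 16.2 and 4.14 and then 39.9 and 47.9 and was not called (adjusted p = 0.00209 in limma). Of 10 tested Ly49 receptors, which read MHC class I on target cells, 9 were called higher, and Klra5 went from 2.21 and 2.07 to 90.5 and 82.8 and Klra8 from 5.91 and 4.14 to 90.5 and 77, though reads are hard to assign within this family of near copies. Without either treated pool most of these calls were lost, among them those of Ncr1, Nkg7, Klrd1, Klrg1 and Klra8. Such a fit takes the spread between pools from the untreated pools only. With each pool left out in turn, the log2 change stayed within 3.02 to 3.72 for Ncr1 and 3.61 to 4.42 for Nkg7. It stayed within 2.99 to 4.77 for Klrd1, 5.02 to 5.82 for Klrg1 and 3.61 to 4.04 for Klra8.

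Of 20 genes listed for T cells 13 had enough reads to test and 8 were called higher, or 2 without either CPA/9d pool. Cd4 rose from 24.4 and 29.99 to 238 and 312 normalized reads, while Cd3e and Cd3d, chains of the T cell receptor complex, stayed at the few reads given above. Cd2, an adhesion receptor that NK cells share with T cells, went from 5.17 and 2.07 to 24.8 and 34.8, and lost its call without either CPA/9d pool (adjusted p up to 0.0173 in limma). Cd28 had 3 reads in the untreated and 42 in the treated libraries (ratio 17.9, interval 5.72 to 90.2), and Icos had 1 and 22 (ratio 28.1, interval 4.55 to 1160), and neither was called without either CPA/9d pool (adjusted p up to 0.00645 and 0.0178 in limma). Of 5 tested genes of B cells and plasma cells 2 rose, 1 fell and the median was 0.091. Cd79b rose from 1 to 85 reads (ratio 109, interval 19 to 4340), and Cr2, which encodes complement receptor CD21, fell from 134 and 139.6 to 43.5 and 33.4 normalized reads. Without either CPA/9d pool 1 gene of this list was called higher, and it was not Cd79b (adjusted p up to 0.00333 in limma).

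**Figure D2:**
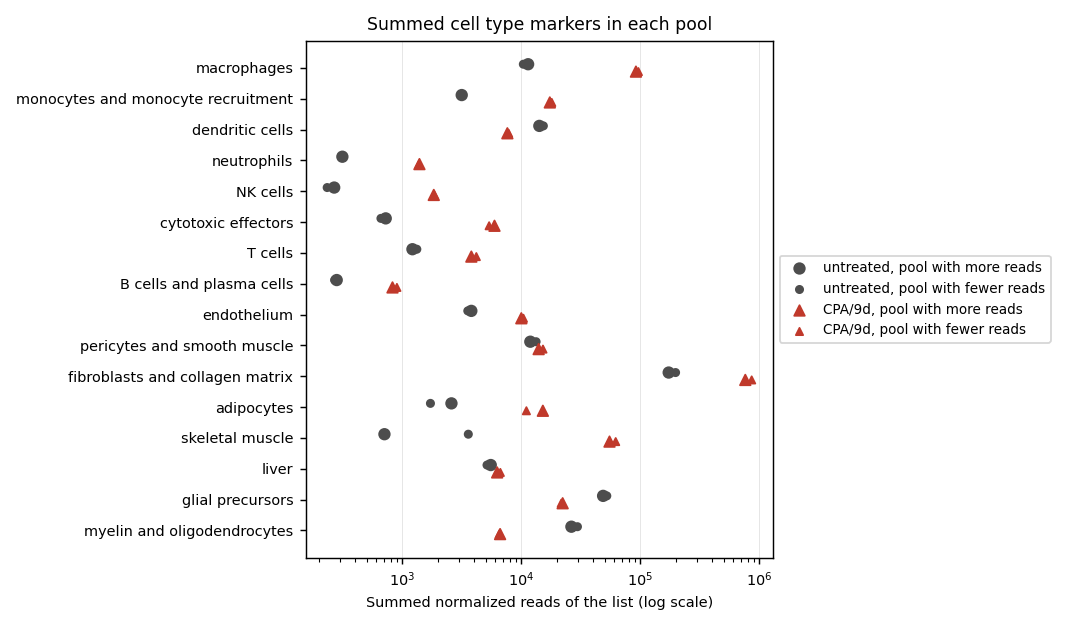
Summed normalized reads of 16 cell type lists in each pool, on a log scale, with circles for untreated and triangles for CPA/9d pools and the larger symbol for the pool with more reads. The sums of macrophages (11377 and 10375 to 91749 and 96276) and cytotoxic effectors (723 and 659 to 5935 and 5350.5) were higher and those of myelin (26304 and 29567 to 6614 and 6502) lower in both CPA/9d pools, and the untreated pools of skeletal muscle stood apart from each other (705 and 3575).

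Secreted signals for immune cells rose broadly. Of 23 tested chemokines 19 were called higher and none lower, with a median of 2.60. Ccl11 (eotaxin, chr11:81871325-81876457, mm9, plus strand), which draws eosinophils, went from 23.6 and 21.7 to 821 and 720.2, 34-fold. Ccl8, a monocyte attractant, went from 296 and 250.3 to 2971 and 3083, and Cxcl12, which binds Cxcr4 and is made by stroma, from 185 and 148 to 1727 and 1819. All 3 were roughly level within each group. Of the neutrophil attractants, Cxcl1 had too few reads to test, at 3.69 and 6.21 before and 6.21 and 13.1 after, and Cxcl2 was at 4.43 and 5.17 before and 14.2 and 17.4 after, higher in both treated pools but not called. Of 10 tested chemokine receptors 6 rose, among them Cxcr3 (8.12 and 2.07 to 44.3 and 40.7) and Cxcr4 (80.5 and 64.1 to 504 and 499). Of 20 tested cytokines and growth factors 12 rose. Il1rn, the natural antagonist of the IL-1 receptor, went from 79.7 and 74.5 to 459 and 543, Il1b from 20.7 and 18.6 to 77.2 and 56.6 and Igf1 from 312 and 274 to 2024 and 2063. Without either CPA/9d pool, 12 or 11 chemokines and 6 cytokines were called, and Cxcr3 and Il1b lost their calls (adjusted p up to 0.0215 and 0.00748 in limma).

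Antigen presentation, complement and receptors for microbes and antibodies rose as groups. All 11 tested MHC class II genes were called higher with a median of 2.48: H2-Eb1 went from 718 and 613 to 7325 and 7328, H2-Aa from 828 and 715 to 7504 and 8202, and Ciita, their master regulator, from 155 and 115 to 626 and 637. MHC class I moved less, with 7 of 17 tested genes called (median 0.57), H2-D1 rising 4.21-fold and H2-K1 2.26-fold. All 22 complement genes were called higher, with a median of 2.81. C1qa, a chain of the protein that opens the classical pathway, went from 1206 and 1139 to 9907 and 10856, and Serping1, the inhibitor of that step, from 820.2 and 722 to 8647 and 9708, so the pathway's starter and its brake rose together (8.86-fold and 11.9-fold). Of 22 Toll-like receptor and inflammasome genes 17 rose, or 11 without either CPA/9d pool, with Tlr9, a sensor of DNA, from 61.3 and 58.9 to 534 and 542 and Tlr1 from 63.5 and 72.4 to 690.0 and 656. All 7 tested Fc receptors rose.

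All 22 C-type lectins and Siglecs were called higher (median 2.87), 12 of them without either CPA/9d pool. Cd22, known as an inhibitory Siglec of B cells, went from 28.8 and 26.9 to 635 and 665 in these hosts without B cells, 23.3-fold (log2 4.50 ± 0.12, adjusted p = 1.26e-09 in limma). Clec12a, an inhibitory receptor of myeloid cells, went from 85.6 and 73.4 to 1306 and 1337, and Clec1b, the CLEC-2 receptor of platelets and myeloid cells, from 2 reads to 112 (ratio 71.6, interval 19.4 to 598). Of 13 tested genes of immune checkpoints 10 rose, with Cd274, which encodes PD-L1, from 195.6 and 182 to 991 and 1009 and Lilrb3, an inhibitory myeloid receptor, from 111 and 109 to 1067 and 1108. Pdcd1lg2, which encodes PD-L2, went from 9.60 and 6.21 to 52.3 and 65.3 and lost its call without either CPA/9d pool, as did Clec1b (adjusted p up to 0.00453 and 0.00365 in limma). Of 32 lysosomal genes 23 rose and 1 fell, with Ctss, a cathepsin of antigen presenting cells, from 1902 and 1814 to 20624 and 21255 and Ctsb from 6399 and 6063 to 47076 and 50848. The gene that fell was Gpnmb, a glycoprotein of macrophages, melanocytes and glioma cells, from 28400.2 and 32042 to 15270.4 and 14135, and its change came under 2-fold when the untreated or the CPA/9d pool with fewer reads was left out. Of 13 tested phagocytic and scavenger receptors 12 rose, or 7 without either CPA/9d pool, among them Mertk, which binds dying cells through a bridge protein, from 101.1 and 103 to 759 and 752. Its relative Axl did not pass, at 10382 and 10314 and then 9272 and 9422.

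**Figure D3:**
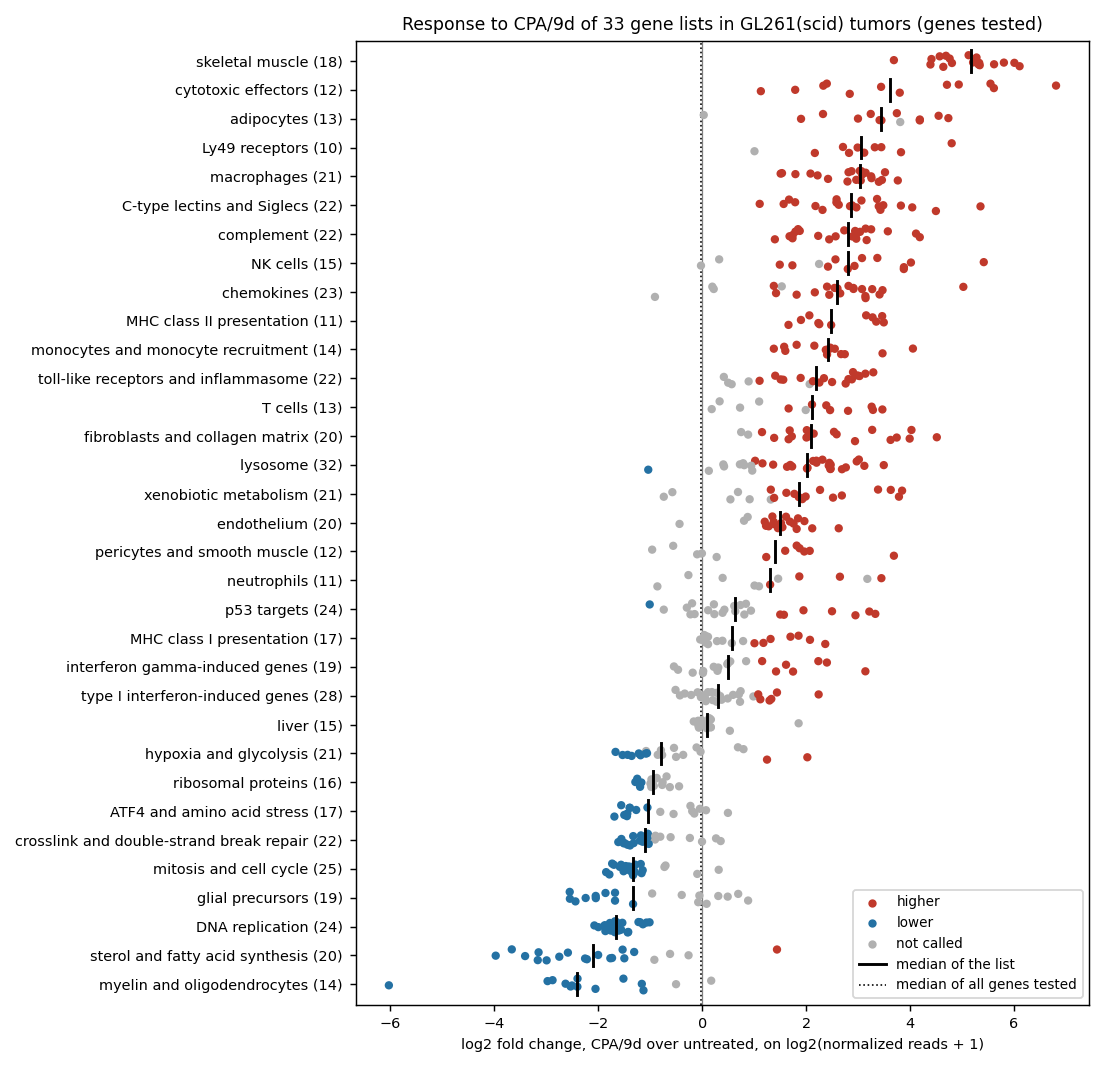
Fitted log2 fold change, CPA/9d over untreated, of the tested genes of 33 gene lists, 1 point per gene, red where called higher, blue where called lower and grey where not called, with the number tested after each name. Black bars are list medians, from 5.17 for skeletal muscle to -2.40 for myelin, and the dotted line is the median of all genes tested, -0.0293.

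Stromal genes rose to a large share of the reads. Of 20 genes of fibroblasts and collagen matrix 18 were called higher (median 2.10), and the list took 1.47 and 1.68% of the reads in the untreated and 6.77 and 7.54% in the CPA/9d pools. Col1a1, the main chain of fibrillar collagen, went from 39136 and 45485 to 155861 and 186026, 4.04-fold. The small proteoglycan Dcn (decorin) went from 814 and 852 to 12509.5 and 14752 and Dpt (dermatopontin) from 173 and 150.0 to 3569.7 and 3852. The rises of Dcn and Dpt, 16.4-fold and 22.9-fold, exceeded that of Col1a1. Of 16 matrix metalloproteases and inhibitors 10 rose and 2 fell. Mmp3 (stromelysin) went from 227 and 235 to 3698 and 4263 and Mmp2 from 1705 and 1642 to 17469 and 17817, while the membrane-bound Mmp15 fell from 2532 and 2799.6 to 339.7 and 359 and Mmp16 from 664 and 759 to 197.8 and 171. Timp2, an inhibitor of these enzymes, rose 9.10-fold. Of 15 genes of TGF-beta and activin signaling 7 rose and none fell, with Tgfb1 3.61-fold and its receptor Tgfbr2 3.92-fold higher. Among 16 tested Wnt ligands and antagonists 8 rose, or 4 without either CPA/9d pool. These were led by secreted antagonists, Sfrp1 from 103 and 97.2 to 1048 and 1056 and Dkk2 from 17 and 15.5 to 194.2 and 183, while the ligand Wnt4 fell from 303 and 351 to 60.3 and 39.2.

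Vessel genes rose by smaller factors. Of 20 endothelial genes 17 were called higher (median 1.49), or 10 without either CPA/9d pool. Pecam1, the adhesion molecule CD31, went from 378 and 409.5 to 1308 and 1358, 3.38-fold, Cdh5, the cadherin of endothelial junctions, from 402 and 376 to 882 and 913, and Vwf, which encodes von Willebrand factor, from 98.9 and 88.9 to 563 and 607, 6.23-fold. Of 12 genes of pericytes and smooth muscle 7 rose, including Notch3 (192.7 and 163.4 to 680.2 and 710.0) and Rgs5 (104 and 118 to 347 and 446), and Pdgfrb, the receptor that recruits pericytes, rose 2.35-fold. None fell, but 1 was called lower without the untreated pool with more reads or without the CPA/9d pool with fewer. Of 15 genes of VEGF and angiopoietin signaling 8 rose. Vegfa itself was at 2385 and 2153 in the untreated and 1352 and 1304 in the CPA/9d pools, lower in both treated pools but by less than 2-fold (log2 -0.77 ± 0.061, not called), whereas Figf, which encodes VEGF-D, rose from 30.3 and 29.99 to 272 and 273. The 4 tested genes of red cells and platelets rose, Pf4 4.56-fold and Alas2 3.75-fold, but 1 of them was called without either CPA/9d pool, not Alas2 (adjusted p up to 0.00713 in limma), and the globin genes Hba-a1 and Hbb-b1 are listed at 0 in all 4 libraries.

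Genes of skeletal muscle had the highest median of all lists. All 18 tested of 20 were called higher (median 5.17), and the summed level was 705 and 3575 in the untreated against 55007 and 61993 in the CPA/9d pools, 0.00598 and 0.0305% and 0.489 and 0.542% of the reads. Ckm, muscle creatine kinase, was at 36.9 and 322 and then 5211 and 5645, and Myh4, a fast myosin heavy chain, at 61.3 and 536 and then 12816 and 10784. For Ckm and Myh4 the untreated pools differed severalfold from each other and the treated pools were alike. The treated pools of Mb and Myh2, given below, differed from each other by more than 2-fold. Both treated pools were above both untreated pools, as for 43.6% of all genes tested. Without either CPA/9d pool none of the 18 was called, with adjusted p up to 0.0152 for Ckm and 0.0129 for Myh4 in limma. Other genes of muscle fibers were among the 15 largest increases without being on the list, namely Igfn1, Art1, Hrc, Eef1a2, Mylk4 and Pygm, which encodes muscle glycogen phosphorylase. All of these lost the call without either CPA/9d pool (adjusted p up to 0.0157 for Mylk4 in limma), Art1 only without the one with fewer reads. Fat genes followed, 11 of 13 tested (median 3.45), with Adipoq (adiponectin) at 57.6 and 8.27 and then 618 and 290.4 and Lpl (lipoprotein lipase, which macrophages also make) at 224 and 155 and then 5246 and 4768. Without the CPA/9d pool with more reads 4 fat genes were called, without the one with fewer 5, and Adipoq lost its call (adjusted p up to 0.0367 in limma). Flank muscle and fat lie next to a s.c. tumor, and their part in these values was not tested. Of 16 listed skin and hair follicle genes only 3 could be tested and 2 rose, Krt10 from 1.48 and 4.14 to 29.3 and 36.3 and Sbsn from 25.1 and 27.9 to 119 and 113, none without either CPA/9d pool, while the keratins of basal skin, Krt5 and Krt14, had at most 1 read in any library.

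Genes that mark the glioma cells fell. Of 19 tested glial precursor genes 10 were called lower and none higher (median -1.33), and of 14 tested myelin genes 12 were called lower and none higher (median -2.40). Olig1 went from 11073 and 12322 to 3241 and 3189.9 and Olig2 from 5213 and 5728 to 1363 and 1281, both transcription factors of the oligodendrocyte lineage, 3.64-fold and 4.14-fold lower. Omg (chr11:79314484-79317586, mm9, minus strand), the oligodendrocyte myelin glycoprotein, had the largest decrease of all named genes, from 145 and 183 to 5.32 and 0, the last value a count of 0 that allows up to 4.36 normalized reads. Mbp, a main protein of myelin, was at 1355 and 1670.2 and then 1073 and 1049.8 and was not called. Bcan (brevican) fell 5.87-fold and Sox8 5.90-fold. Further large decreases were those of Col9a1 (7736 and 7660.3 to 465 and 389) and Col9a3 (7989.7 and 7621 to 644 and 539), chains of a cartilage collagen, and Lect1, which encodes chondromodulin (2614 and 2665 to 276 and 224). Among 11 tested genes of neural adhesion and synapses 4 rose and 2 fell, beside 19.5% and 10.8% of all genes tested, and fewer did without either CPA/9d pool. Cntn1 fell from 1149.5 and 1189 to 197.8 and 138, and Gria3, a glutamate receptor subunit, rose from 55.4 and 67.2 to 424 and 401.

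Proliferation genes fell together. All 24 genes of DNA replication were called lower, by log2 changes between -2.08 and -1.01 (median -1.66), and of 25 genes of mitosis and the cell cycle 21 were called lower and none higher (median -1.33). Mki67, which encodes the proliferation antigen Ki-67, went from 5505 and 5368 to 1682 and 1588 (log2 -1.73 ± 0.051, adjusted p = 1.75e-09 in limma), and Top2a, the topoisomerase that untangles DNA before division, from 8617 and 8446 to 3007 and 2779. Ccna2 (cyclin A) went from 1850.1 and 1834 to 527 and 495 and Pola1, the catalytic subunit of the polymerase that starts new strands, from 1886 and 1733 to 443 and 414. Mcm6, part of the helicase that opens DNA, fell 4.00-fold and Mcm5 3.71-fold. For each of these genes both treated pools were below both untreated pools, as for 46% of all genes tested, and the pools of a group lay close together. Myc, a driver of growth, fell from 2297 and 2297 to 805 and 723.

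Many promoters of cell cycle genes carry the letters TTTGAA (the cell cycle homology region) or CCAAT (the box bound by NF-Y), which are known to time expression to late phases of the cycle. In the RefSeq promoters, 250 bases before to 50 after the start (GRCm38.p6), TTTGAA was found on either strand in 12 of 19 promoters of the mitosis list (63.2%) and in 17.9% of 32851 promoters of all genes, and CCAAT in 14 of 19 (73.7%) and 37.4%. The 250 bases before the starts of Mki67 and Top2a are shown as examples that hold both motifs, as do other genes of the list. Capitals mark every TTTGAA and CCAAT on either strand, 2 and 3 sites in Mki67 and 2 and 6 sites in Top2a. The windows are chr7:135716380-135716629 and chr11:99024190-99024439 (GRCm38.p6, minus strand), written along the gene.
Mki67: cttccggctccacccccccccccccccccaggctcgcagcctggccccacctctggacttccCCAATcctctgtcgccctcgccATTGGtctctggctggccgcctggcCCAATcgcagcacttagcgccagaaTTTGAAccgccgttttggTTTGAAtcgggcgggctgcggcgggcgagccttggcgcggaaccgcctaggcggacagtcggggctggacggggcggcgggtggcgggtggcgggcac
Top2a: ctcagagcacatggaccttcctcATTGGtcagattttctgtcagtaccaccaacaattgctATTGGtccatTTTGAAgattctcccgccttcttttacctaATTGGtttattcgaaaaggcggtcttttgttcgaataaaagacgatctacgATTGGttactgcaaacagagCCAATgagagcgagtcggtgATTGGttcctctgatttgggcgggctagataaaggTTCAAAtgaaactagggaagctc
The presence of these letters describes the sequences and says nothing of binding in these tumors.

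Targets of p53, the factor that damaged DNA activates, moved unevenly. Of 24 tested 7 were called higher and 1 lower (median 0.63), beside 19.5% and 10.8% of all genes tested. Cdkn1a, the p21 inhibitor of the cell cycle, rose from 1745 and 1634 to 4837 and 4728, 2.83-fold, and Trp53inp1 from 338 and 316 to 1862 and 1844. Eda2r, a receptor that p53 induces, had the steepest rise of the list, from 36.2 and 29 to 327 and 343, and the death gene Pmaip1 (Noxa) went from 42.1 and 25.9 to 297 and 334, with a call lost without either CPA/9d pool (adjusted p up to 0.00126 in limma). Mdm2, the ligase that degrades p53, was at 1255 and 1257 and then 1651 and 1645, a log2 change of 0.39 that was not called. The gene called lower was Gtse1, which is itself made late in the cell cycle, from 620.2 and 623 to 333 and 285. It was not called without the CPA/9d pool with fewer reads, where its change came under 2-fold. Of 22 genes that repair crosslinks and DNA breaks 14 were called lower and none higher (median -1.10): Brca2 went from 521 and 488 to 188 and 166 and Fanci from 449 and 446 to 143 and 148, while Fancc was at 163.2 and 173 and then 199.5 and 205. Several of these repair genes are, like those of replication, made mainly in dividing cells.

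Interferon-induced genes mostly moved by less than 2-fold. Of 28 genes induced by type I interferon 6 were called higher and none lower, a share of the list close to the 19.5% of all genes, with a median of 0.31. Irf7, the factor that amplifies the response, rose from 2719.8 and 2916 to 7485 and 7793, Mx1, an antiviral GTPase, from 332 and 316 to 1627 and 1451, and Oasl1 from 437 and 446 to 1070.5 and 1153. Isg15, a ubiquitin-like protein, and Ifit1, which binds foreign RNA, chosen after their values were seen, were not called, Isg15 at 2425 and 2444 before and 2269 and 1944 after and Ifit1 at 1313 and 1286 before and 1644 and 1659.6 after. Of 19 tested genes induced by interferon gamma, the cytokine of NK and T cells, 7 rose and none fell (median 0.49). Cxcl9 went from 145 and 156 to 1274 and 1401, 8.87-fold, while Irf1, a transcription factor that interferon induces, was at 948 and 1003 and then 1811 and 1696, higher in the treated pools by less than 2-fold.

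The interferon-stimulated response element, GAAA followed by any 2 bases and another GAAA, on either strand, was found in 11 of 21 RefSeq promoters matched to 19 of the 28 genes of the type I list (52.4%) and in 3.44% of all promoters, and the gamma-activated site, TTCNNNGAA, in 5 of 15 promoters of the interferon gamma list (33.3%) and in 8.3% of all. The 250 bases before the starts of Ifit1 and Isg15 are shown as clear cases of the first motif in genes that did not pass here and whose response differed between hosts. Capitals mark its 2 sites in Ifit1 (chr19:34640639-34640888, GRCm38.p6, plus strand) and 3 overlapping sites in Isg15 (chr4:156200819-156201068, minus strand), written along the gene.
Ifit1: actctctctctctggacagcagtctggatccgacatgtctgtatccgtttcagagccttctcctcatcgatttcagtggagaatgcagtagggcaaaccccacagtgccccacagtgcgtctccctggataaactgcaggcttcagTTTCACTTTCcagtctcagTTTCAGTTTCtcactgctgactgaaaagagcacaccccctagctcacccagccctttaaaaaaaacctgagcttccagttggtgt
Isg15: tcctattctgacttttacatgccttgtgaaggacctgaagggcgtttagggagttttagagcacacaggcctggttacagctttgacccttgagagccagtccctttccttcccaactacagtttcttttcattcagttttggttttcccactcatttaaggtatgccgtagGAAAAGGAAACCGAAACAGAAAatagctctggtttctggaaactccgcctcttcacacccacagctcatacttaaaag

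Sterol synthesis fell as a pathway. Of 20 tested genes of sterol and fatty acid synthesis 16 were called lower and 1 higher, with a median of -2.11. Idi1, an isomerase early in the pathway, went from 1501 and 1626 to 124 and 121, 12.8-fold lower (log2 -3.66 ± 0.077, adjusted p = 3.37e-10 in limma), and Sqle, which makes the first oxygenation, went from 2001 and 2071 to 222 and 231. The treated pools were nearly equal to each other for both genes, and lay below both untreated pools, as for 46% of all genes tested. Hmgcs1 is listed at 0 in all 4 libraries. The single gene called higher was Scd1, a fatty acid desaturase that fat cells make in quantity, from 2299.8 and 1961 to 6375 and 5204.

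Other metabolic and stress genes were lower in part. Of 21 genes of hypoxia and glycolysis 8 fell and 2 rose, with Pgk1 from 19914 and 19014 to 6244 and 6008 and the glucose transporter Slc2a1 from 9062 and 7911 to 3335 and 2937, against rises of Ndrg1 (215 and 214 to 827 and 925) and Eno2 (214 and 214 to 501 and 518). Of 17 genes of ATF4 and amino acid stress 9 fell and none rose, among them Asns, asparagine synthetase, from 1709.9 and 1753 to 639 and 585 and Trib3 from 1998 and 1976 to 766 and 691, while Atf4 was at 6059 and 5914 and then 3519 and 3326 and Ddit3 (CHOP) at 568 and 595 and then 837 and 803. All 16 ribosomal protein genes were lower in both treated pools, as were 46% of all genes tested (median -0.95), but 4 of them by enough to be called, such as Rplp0 from 37968 and 38256 to 15425 and 15838. Of 18 genes of the respiratory chain 2 were called lower, a share near the 10.8% of all genes tested, namely Atp5b (2.39-fold) and Cyc1 (2.20-fold). Of 22 tested genes of the Nrf2, heme and glutathione group 10 rose and 2 fell. Gpx3, a secreted glutathione peroxidase, went from 956 and 979 to 10885 and 12079, and Slc40a1, the iron exporter ferroportin, from 46.5 and 57.9 to 482 and 536, while Gsr fell 2.21-fold and Txnrd1 2.05-fold.

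Genes of xenobiotic metabolism rose in 15 of 21 tested and fell in none (median 1.86), or in 8 and 7 without the CPA/9d pool with more and with fewer reads. Ephx1, an epoxide hydrolase, went from 98.2 and 89.97 to 1364 and 1366, Cyp1b1 from 73.8 and 47.6 to 858 and 804 and Fmo1, a flavin monooxygenase, from 36.2 and 35.2 to 428 and 478. Aldh1a1, known to inactivate an intermediate of CPA, went from 42.1 and 48.6 to 269.6 and 327, 6.58-fold. None of the 15 tested liver genes was called, or 1 without the untreated pool with more reads, at a median of 0.091: Alb (albumin) was at 2710.2 and 2790.3 and then 2804 and 3265 and Apoa1 at 214 and 202 and then 228 and 238, levels well above 0 in a s.c. glioma whose source was not tested.

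Of 18 genes of the circadian clock 8 rose and 1 fell, or 6 and 5 rose without the CPA/9d pool with more and with fewer reads. Per3 went from 229.6 and 213 to 823 and 819, Per2 from 134 and 123 to 415 and 385, and Dbp, an output of the clock, from 87.9 and 117 to 498 and 563, while the repressor Cry1 fell from 459 and 485 to 194.2 and 197.5 and Per1 was at 1223 and 1173 and then 1289 and 1270.5. The time of day at which tumors were taken is not given in the sources used here. Of 18 immediate early genes 5 rose and 2 fell, beside 19.5% and 10.8% of all genes tested, and fewer rose without either CPA/9d pool. Atf3 rose 3.19-fold, Myc and Maff fell, and Fos was at 1856 and 1815 and then 1120.1 and 1079. Of 12 glucocorticoid-induced genes 4 rose and 2 fell: Cdkn1c rose from 59.8 and 43.4 to 224 and 237 and Tsc22d3 from 496 and 501 to 1432 and 1631, while the metallothioneins Mt1 and Mt2 fell 2.03-fold and 2.41-fold, and 2 of the rises were called without either CPA/9d pool (adjusted p up to 0.00171 for Cdkn1c in limma). The change of Mt1 came under 2-fold without the untreated or the CPA/9d pool with more reads. Of 15 imprinted growth genes 7 rose and 4 fell. This count and that of the glucocorticoid list also stand beside 19.5% and 10.8% of all genes tested. H19, a long noncoding RNA of growing tissue, fell from 17328 and 18595 to 2265 and 2445, 7.63-fold, and Peg3 3.01-fold, while Meg3 rose from 563 and 731 to 3587 and 3623 and Igf2, the neighbour of H19, was at 571 and 575 and then 702 and 740.5. The 4 Y-linked genes Ddx3y, Eif2s3y, Kdm5d and Uty rose by log2 changes of 2.07, 2.44, 2.14 and 2.13, Uty with a call lost without either CPA/9d pool (adjusted p up to 0.00154 in limma), and Xist was not called.

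The 2 schedules of CPA were compared directly, since both responses use the same untreated pools. Of 14830 genes tested, 328 were higher in CPA/9d than in CPA/6d tumors (2.21%) and 25 were lower (0.169%) at a fold over 1.5 and an adjusted p under 0.05 in limma. With the untreated pools added to the fit 135 were higher, and the number lower was 38 without the CPA/6d pool with more reads and 138 and 44 without the CPA/9d pool with more and with fewer reads. None of the 21 macrophage genes, 24 replication genes or 25 mitosis genes was called in either direction, with medians of 0.069, -0.20 and -0.26 beside -0.00582 over all genes tested. Of 12 cytotoxic effectors none was called (median -0.23).

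Muscle genes were higher on the longer schedule. Of 19 tested 18 were called higher, and the summed level was 25353 and 27644 in the CPA/6d and 54892 and 61802 in the CPA/9d pools. Ckm was at 2458 and 2714 in the CPA/6d pools and 5200.4 and 5628 in the CPA/9d pools (log2 1.07 ± 0.067, adjusted p = 7.90e-07 in limma), while Mb, myoglobin, was at 262 and 101.3 and then 407 and 1274, with pools of a group that differed by more than 2-fold. Retnla had the largest difference upward of the genes named, at 24 and 16.5 on CPA/6d and 109 and 94.1 on CPA/9d (log2 2.29 ± 0.24, adjusted p = 6.75e-05 in limma). Per2 was at 195.7 and 195.4 on CPA/6d and 414 and 384 on CPA/9d and Per3 at 456 and 478 on CPA/6d and 821 and 816 on CPA/9d, and 5 of 18 clock genes were called higher. Of 21 genes of xenobiotic metabolism 8 were called higher, with Fmo1 at 176 and 188 on CPA/6d and 427 and 476 on CPA/9d. Also higher were Mmp12, a macrophage elastase (1904 and 1447 against 3762 and 3842), Lpl (2864 and 2648 against 5235 and 4754) and Fmod, a collagen-binding proteoglycan (455 and 389 against 866 and 822), and for each of these the pools of the schedules did not overlap, as in 25.8% of all genes tested upward. The MHC class II genes H2-Aa, H2-Eb1 and Cd74 were called higher by log2 differences of 0.64, 0.65 and 0.62, and Dcn by 0.63, close to the 1.5-fold limit, and each of these 4 came under it without the CPA/6d pool with fewer reads, and all but H2-Eb1 also without the CPA/9d pool with fewer reads.

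Lower on the longer schedule were Xist (947 and 651 on CPA/6d against 36.3 and 47.8 on CPA/9d), Serpinb2, a protease inhibitor of activated macrophages (99 and 29.99 against 4.43 and 7.24), and Il1rl1, the receptor of IL-33 (605 and 322 against 95.6 and 120.1). The CPA/6d pools of Serpinb2 and Il1rl1 differed from each other by a wide margin and still did not reach down to the CPA/9d pools, and 26.7% of all genes tested had no overlap in this direction. Chi3l3, a chitinase-like protein of macrophages (115 and 108 against 59.3 and 60.8), and Ly6c2 (803 and 703 against 458 and 468) differed by smaller factors and with narrower spread. The acute phase genes Lcn2 and Ptx3 were lower by log2 differences of -0.91 and -0.89, and neither was called without the CPA/6d pool with more reads (adjusted p up to 0.106 and 0.0621 in limma).

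**Figure D4:**
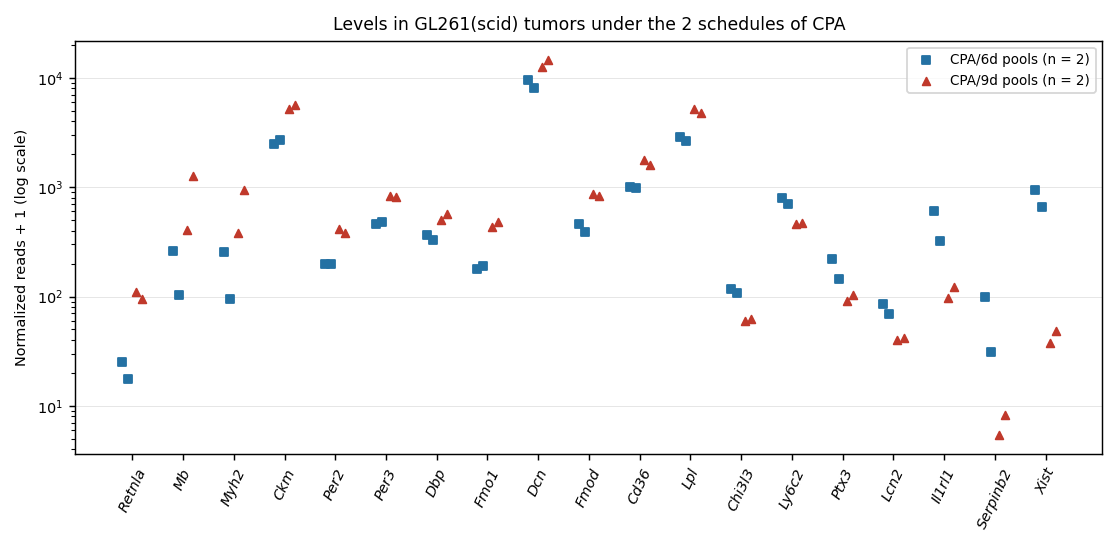
Levels of 19 genes in GL261(scid) tumors on the 6-day and 9-day schedules, as normalized reads + 1 on a log scale, with squares for the 2 CPA/6d pools and triangles for the 2 CPA/9d pools. Retnla (24 and 16.5 on CPA/6d, 109 and 94.1 on CPA/9d) and Xist (947 and 651 on CPA/6d, 36.3 and 47.8 on CPA/9d) show the widest gaps in opposite directions.

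The response to CPA/9d in scid hosts was then set against the response to CPA/6d in B6 hosts by the difference of the 2 responses, each taken within its own host because the kits differed. Host, kit and schedule cannot be told apart in it. Within scid hosts the median log2 difference of CPA/9d from CPA/6d was -0.20 for the type I interferon list and -0.23 for the cytotoxic effectors. How much of a difference between hosts goes with the schedule was not tested. Of 14999 genes tested, 127 had a response higher in scid hosts (0.847%) and 121 a lower one (0.807%) at a fold of the difference over 2 and an adjusted p under 0.001 in limma, with a median of -0.0921 over all genes. With the libraries scaled by their total reads these were 145 and 85, so that 63.0% of the calls were higher in place of 51.2%. Each of the 8 libraries but the untreated B6 pools lowered these counts by more than 1.5 times when left out: to 57 and 57 without the scid untreated pool with more reads and 45 and 58 without the one with fewer, to 32 and 54 and to 20 and 42 without the CPA/9d pools, and to 59 and 66 and to 63 and 70 without the B6 CPA/6d pools, each time with the pool with more reads given first.

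Interferon-induced genes had lower responses in scid hosts. Of the 28 genes of the type I list 16 were called lower in the difference and none higher (median -1.04). That median and the differences given below lie close to the 2-fold limit. How many of the 16 hold under another scaling or without a library was not counted. In B6 hosts 22 of them rose (16.8% of all genes tested there did), with a median of 1.45. Ifit2, an antiviral protein, went from 555 and 497 to 2706 and 2656 in B6 and from 997 and 1024 to 2447 and 2519 in scid hosts, a difference of -1.05 ± 0.086 in log2 (adjusted p = 2.82e-05 in limma). Oasl1 went from 74.3 and 62.5 to 456 and 469.6 in B6 and from 437 and 446 to 1070.5 and 1153 in scid hosts, rising in both hosts and by a smaller factor in scid hosts. Ifit1 and Isg15, whose promoters are shown above, went from 309 and 337 to 842 and 818 and from 529 and 469 to 921 and 952 in B6 hosts, with differences of -1.02 ± 0.086 and -1.12 ± 0.11 (adjusted p = 3.33e-05 and 8.62e-05 in limma). Of 20 genes induced by interferon gamma 6 were called lower and none higher. Ifit2 came under a 2-fold difference without the B6 untreated pool with fewer reads, and Oasl1 missed the p threshold without either CPA/9d pool (adjusted p up to 0.00112 in limma).

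Some single myeloid genes had smaller responses in scid hosts, and the neutrophil list had a lower median response there. In the difference 1 of 21 macrophage genes was called higher and 1 lower (median 0.32), 1 of 14 monocyte genes lower (median -0.28), and 4 of 15 genes of alternative activation lower beside a median of 0.55. The genes that follow were named by the size of their difference or by their place in a list. Chi3l3 went from 111 and 91.9 to 5473 and 4916 in B6 hosts and from 21.4 and 21.7 to 59.4 and 61 in scid hosts (difference -4.23 ± 0.18, adjusted p = 6.47e-07 in limma). Nos2, which makes nitric oxide in activated macrophages, went from 53.7 and 67.4 to 1331 and 1565 and from 22.1 and 25.9 to 78 and 72.6, and Irg1, which makes itaconate, from 74.3 and 77.2 to 712 and 748 and from 169.8 and 169.6 to 215 and 213. All 3 rose steeply in B6 tumors and by far less, or not by enough to be called, in scid tumors, where Chi3l3 and Nos2 lost the call without either CPA/9d pool (adjusted p up to 0.00734 and 0.00530 in limma). Arg1 differed by -1.82. The neutrophil list had a median difference of -1.93. In B6 hosts 10 of its 15 tested genes were called higher, beside 16.8% of all genes tested there, with a median of 3.18. Of 15 tested neutrophil genes 3 were called lower in the difference, S100a9 (1.03 and 3.67 to 303 and 583 in B6 hosts), S100a8 and Ngp, with adjusted p up to 0.00451, 0.00261 and 0.00854 when a library was left out. The chemokine Ccl17 and the receptor Cxcr6, carried by T and NK cells, differed by -2.99 and -3.75, Ccl17 with a call lost without the scid untreated or the CPA/9d pool with fewer reads (adjusted p up to 0.00140 in limma).

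Higher responses in scid hosts were found for some granzymes, vessel genes and matrix genes. Of 13 cytotoxic effectors 2 were called higher and none lower in the difference (median 0.87). Of 16 NK cell genes 1 was called higher and none lower (median -0.033). Gzma went from 43.3 and 35.5 to 227 and 217 in B6 hosts against 14 and 13.4 to 741 and 699.8 in scid hosts (difference 3.14 ± 0.21, adjusted p = 1.13e-05 in limma), and Gzmb from 92.9 and 79.6 to 610.1 and 554 against 13.3 and 13.4 to 714 and 630.1. Both rose in each host, by the larger factor in scid hosts. Of 20 endothelial genes 4 were called higher and 1 lower in the difference (median 0.96), with Vwf at 203 and 240.0 before and 515 and 486 after CPA in B6 hosts and a difference of 1.45. Of 12 genes of pericytes and smooth muscle 4 were called higher, namely Kcnj8, Notch3, Rgs5 and Abcc9, by 2.87, 1.66, 1.83 and 2.01. Abcc9, a channel subunit of pericytes, and Flt1, a VEGF receptor and the endothelial gene called lower (difference -1.04), were singled out after their values were seen. Mgp, matrix Gla protein, hardly moved in B6 hosts (100.1 and 93.1 to 143 and 96.8) and differed by 3.46, and 8 of 20 fibroblast genes were called higher, with Dcn at 1.17 and Dpt at 1.77. Vwf and Kcnj8 lost the call without either CPA/9d pool, and Notch3, Rgs5 and Dcn without 4, 7 and 4 of the 8 libraries in turn (adjusted p up to 0.00184, 0.00177, 0.00328, 0.00536 and 0.00164 in limma). None of 17 tested muscle genes was called in B6 hosts (median 2.32), where the summed level was 574 and 1448 in the untreated and 12074 and 1593 in the CPA/6d pools. None of 18 was called in the difference either (median 2.66). With B6 CPA/6d pools so far apart, the lack of calls does not show that these genes stayed level or responded alike. The replication and mitosis genes, lower in 13 of 24 and 4 of 25 in B6 hosts (6.17% of all genes tested there), differed by medians of -0.66 and -0.65. None of the replication genes was called in the difference, and of the mitosis genes Ccne1 (cyclin E), singled out after its values were seen, was called lower (-1.01).

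**Figure D5:**
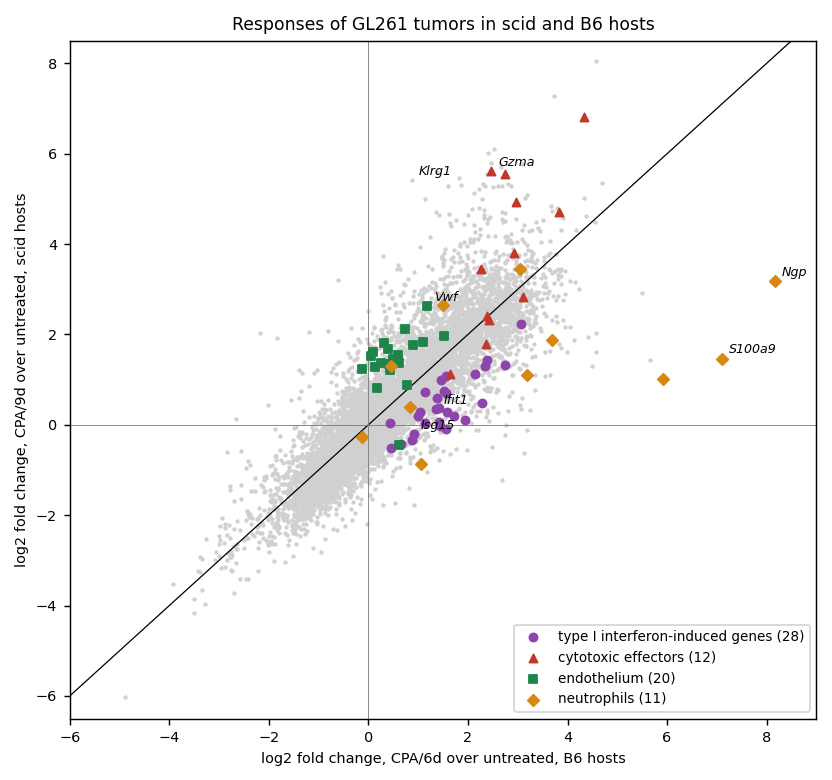
Fitted log2 fold change of 13559 genes in GL261 tumors, CPA/6d over untreated in B6 hosts on the x axis and CPA/9d over untreated in scid hosts on the y axis, with 4 gene lists in color and the line of equal change in black. Type I interferon-induced genes lie below the line (medians 1.45 and 0.31) and endothelial genes mostly above it (medians 0.47 and 1.49).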

How the data were processed

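RNA-seq libraries were made by the authors from poly-A RNA of pooled tumors, mapped with TopHat2 (2.0.13) to mm9, counted over RefSeq genes and normalized with DESeq, per the labels and the study's methods. GL261(scid) libraries were made with TruSeq and GL261(B6) libraries with a directional NEBNext kit. Of the 10 deposited tables, the ones used numbered 4. Each holds, for every gene, the mean of each group's 2 normalized read values, a signal that the authors obtained by dividing reads by library size factors. The authors' ratio, fold change and p-value columns, which hold their own comparisons, were not used. Every group mean was split into whole reads of its 2 pools, for which each gene had 1 solution; the split cannot tell which pool number is which.

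Tests ran in limma 3.58.1 (R 4.3.3, trend) on log2(normalized reads + 1), with at least 10 normalized reads in at least 2 libraries and Benjamini-Hochberg adjustment over all genes tested. Fold changes are on that scale, which understates low genes; fold ratios are of group means. Calls needed a fold over 2 at an adjusted p under 0.001, or 1.5 and 0.05 between schedules. The size of a difference between hosts came from a fit of 8 libraries. Counting intervals and limits (3 reads for a count of 0) cover counting error only. The split and tests were tested on simulated data.

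Members and the 56 gene lists (945 genes) were chosen with earlier results of these data known. Named genes were the 15 largest called changes each way with a group mean of at least 50 and no overlap, the first 2 and up to 4 largest called members each way of each list, the 10 largest differences each way between schedules and hosts, and Vegfa, Xist and Y-linked genes. Alternatives varied the scaling, added value, filter, threshold, libraries fitted and pools left out. Promoters came from RefSeq (GRCm38.p6); gene positions are mm9. Figures used Python 3.11.15 and matplotlib 3.10.9. Some genes that the naming rule selects are not reported here.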

Additional observations from a re-analysis of the deposited data

Results flagged for a closer look

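Each result here was set apart because the responses to CPA differed between schedules or hosts by a test of the difference itself in limma. Between the schedules 328 genes were higher and 25 lower in CPA/9d than in CPA/6d tumors, and between the hosts 127 genes had a higher and 121 a lower response in scid hosts on CPA/9d than in B6 hosts on CPA/6d.

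Of the 10 largest differences upward between schedules, Retnla (log2 2.29) is a gene of alternatively activated macrophages and the other 9 belong to muscle fibers, namely Mb (2.14), Ckmt2 (2.11), Lmod3 (2.03), Lmod2 (1.97), Myh2 (1.95), Actn2 (1.71), Trim63 (1.69), Myh8 (1.68) and Myh1 (1.67). Myh2, a fast myosin, was at 254 and 94.1 on CPA/6d and 382 and 945 on CPA/9d, so the pools of each schedule differed from each other by more than 2-fold and did not overlap between schedules. Those downward were Xist (-4.21), Serpinb2 (-3.06), Il1rl1 (-2.03), Lipg (-0.93), Lcn2 (-0.91), Ptx3 (-0.89), Chi3l3 (-0.88), Tnfsf18 (-0.87), Nebl (-0.82) and Cacna1b (-0.80). Lipg, an endothelial lipase, was at 95.2 and 89.96 on CPA/6d and 44.3 and 52.1 on CPA/9d. Tnfsf18, the ligand of GITR, was at 124 and 203 and then 88.5 and 84. Tnfsf18, Nebl, Cacna1b, Lcn2 and Ptx3 were not called in at least 1 of the 4 fits that left out a pool, with adjusted p up to 0.243, 0.279, 0.140, 0.106 and 0.0621 in limma.

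Higher responses in scid hosts were Kera (log2 difference 5.55), Klrg1 (4.55), Synpo2l (4.22), Slc16a9 (3.87), C4a (3.81), Bai2 (3.76), Gzmg (3.55), Gzmf (3.47), Mgp (3.46) and Tmem178 (3.24). Kera, a matrix proteoglycan known from the cornea, went from 1.48 and 3.10 to 94 and 105 in scid hosts and from 0 and 1.22 to 0 and 0 in B6 hosts, where so few reads leave the size of its difference uncertain. C4a went from 34.7 and 27.9 to 308 and 280.2 in scid and from 14.4 and 11 to 7.58 and 8.24 in B6 hosts, and its reads are hard to tell from those of its close copy C4b. Of these 10 only Mgp was called in each of the 8 fits that left out 1 library.

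Lower responses in scid hosts were S100a9 (-5.63), Ngp (-4.99), S100a8 (-4.90), Chi3l3 (-4.23), Asb11 (-3.90), Cxcr6 (-3.75), Smpd3 (-3.31), Ccl17 (-2.99), Nos2 (-2.95) and Irg1 (-2.92). Cxcr6 went from 35.1 and 45.3 to 317 and 399.6 in B6 hosts and from 107 and 111 to 89.6 and 55.2 in scid hosts. Smpd3, a sphingomyelinase, went from 17.5 and 11 to 111 and 166 in B6 and from 61.3 and 56.9 to 45.2 and 65.3 in scid hosts. Chi3l3, Cxcr6, Nos2 and Irg1 were called in all 8 fits that left out 1 library, and the other 6 in fewer.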

How the results depend on the processing

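Of the response to CPA/9d, no named gene reversed in any alternative, and 92 of 350 lost and 12 gained a call in at least 1 of them. Scaling by TMM or by total reads accounted for 4 of the losses. When 1 pool was left out in turn, 1422 to 3049 genes were called higher and 1271 to 1579 lower. Both counts stayed within 1.5 times the main ones under all other alternatives. The calls were 64.4% higher, or 52.7% and 52.8% without the CPA/9d pools.

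Between the schedules, 135 genes were higher with all 6 GL261(scid) libraries in the fit. Leaving out 1 pool gave 240 to 441 higher and 22 to 138 lower. None of 75 named genes reversed and 40 lost the call in at least 1 alternative. The adjusted p under 0.05 listed as an alternative is the main threshold here.

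Between the hosts, 231 genes were higher with 10 added before log2. At an unadjusted p under 0.001 the counts were 253 and 216, and at an adjusted p under 0.05 they were 511 and 356. Leaving out 1 library gave 20 to 113 higher and 42 to 116 lower. None of 51 named genes reversed and 31 lost the call in at least 1 alternative. The cause of these shifts was not tested. No scaling moved the median of all genes by more than 0.1.

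No paired analysis was possible because the deposited means do not show which pool carries which replicate number. With 2 pools a group, a gene near the lowest reads kept, 10 normalized reads, can be told apart between groups only when its change is large, and the CPA/9d pool with fewer reads was the shallowest of the GL261(scid) libraries.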

Other observations

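Genes outside the lists were among the largest decreases after CPA/9d. Wasf1, which drives actin branching, went from 875 and 1015 to 108 and 88.6, and Mfsd2a, a lipid transporter, from 262 and 306 to 28.4 and 30.5. Pcdh15, a cadherin known from hair cells of the ear, went from 987 and 1228 to 107 and 126, and Rps6ka6, a growth factor-activated kinase, from 181 and 199.6 to 14.2 and 17.4. In all 4 the untreated pools were alike and stood far above both treated pools. Of the 4470 genes called in either direction, 30.3% of all genes tested, 562 were on at least 1 of the 56 lists, which hold 945 genes. Of these lists 45 had more members called higher than lower, 10 had more called lower and 1 had as many of each. Over all genes 2877 were called higher and 1593 lower. The lists were chosen with earlier results of these data known, so these counts depend on that choice.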
